A study of Ovis aries with 8 samples.

Results

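The mesenchymal and stellate cell markers described here are 10 gene symbols: LUM, DCN, SPARC, THY1, PDGFRB, PDGFRA, TAGLN, ACTA2, DES and VIM. They are non-collagen transcripts used to recognise the stroma of the pancreas. Of the 25000 rows of the deposited expression table, 8 carry exactly 1 of these symbols. PDGFRA appears only in a row that merges it with an unnamed Ensembl gene, and ACTA2 is not listed under its symbol. The counts of markers below refer to the 8 exact rows.

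The pancreas holds connective tissue cells between and around its exocrine and endocrine parts. Stellate cells and fibroblasts lay down matrix, and pericytes and smooth muscle cells wrap the vessels that supply the islets. When stellate cells are activated they take on contractile filaments and secrete matrix proteins, and signalling through the platelet-derived growth factor (PDGF) receptors is a known stimulus of their growth and movement. In islets isolated for RNA measurement such cells come along with the endocrine cells, so their transcripts are part of a bulk islet profile.

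Islets were hand-picked from the pancreas of near-term singleton fetuses of Columbia-Rambouillet crossbred ewes. The 4 NE-Infused fetuses received norepinephrine (NE) into a vein for 7 days, at 1 µg/min on day 1, 2 µg/min on days 2 to 4 and 4 µg/min on days 5 to 7. The 4 Saline-Control fetuses were infused with diluent only (0.9% saline that held ascorbic acid at 0.3%). At collection NE-Infused fetuses 1 to 4 were 138, 139, 139 and 137 days of gestation, and Saline-Control fetuses 1 to 4 were 140, 139, 140 and 140 days. NE-Infused 3 and Saline-Control 2 were female and the other 6 were male. No strain or allele distinguishes the groups in the labels. The make-up of the diluent is listed for the Saline-Control fetuses only. Each library is 1 animal, so the spread between replicates is a spread between fetuses.

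Transcript levels are FPKM as the authors deposited them, that is, sequenced fragments scaled to the length of the transcript and to the mapped fragments of the library. They are levels per length, so values of different genes can be set side by side. Differences are of log2(FPKM + 1), NE-Infused minus Saline-Control unless stated, tested with limma over 13252 rows with a mean of at least 1 FPKM. Benjamini-Hochberg adjusted p-values are over all of those rows, with a threshold of 0.05. Values after ± are SDs over n = 4 animals.

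Summed FPKM ran from 768021 to 796149 in the 4 animals whose number starts with 10 and from 981583 to 1112624 in the 4 whose number starts with 09. The labels do not say what these digits mean. NE-Infused 1, 3 and 4 and Saline-Control 2 are numbered 09, and NE-Infused 2 and Saline-Control 1, 3 and 4 are numbered 10, so number and treatment are partly confounded. The table gives no counts, and the depth behind each value is unknown. The islet label was met by its endocrine markers: CHGA, the granule protein chromogranin A, averaged 4853 ± 829.7 FPKM in NE-Infused and 3891 ± 1555 FPKM in Saline-Control islets, and PDX1, a beta-cell transcription factor, 272.4 ± 47.6 and 256.9 ± 30.9 FPKM, in the same order of groups. In these bulk libraries fewer cells of a type and less RNA per cell cannot be told apart.

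No marker passed the test between NE-Infused and Saline-Control islets. By limma 0 of 8 were called, against 0% of all tested rows, and 0 of 8 had an unadjusted p under 0.05, against 7.36% of all rows (975 rows). Of the 8 markers 5 had a higher and 3 a lower mean log2 value in NE-Infused islets, where 52.6% of all tested rows were higher. Their median log2 difference was 0.11, against 0.017 over all rows. The median was -0.048 with equal summed FPKM and -0.072 with the animal number in the model, where 3 markers were higher and 5 lower. Their adjusted p-values ran from 0.730 to 0.974. In 0 of the 8 were the groups free of overlap, as they were in 4.23% of all rows. The NE-Infused animals were widely spread. NE-Infused 4 had the highest level of the 8 animals in 6 of the 8 markers, where it was highest in 21.7% of all tested rows. NE-Infused 2 had the lowest level in 5 of the 8, where it was lowest in 15.2% of all rows. These 2 animals were singled out after their values were seen.

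**Figure D1:**
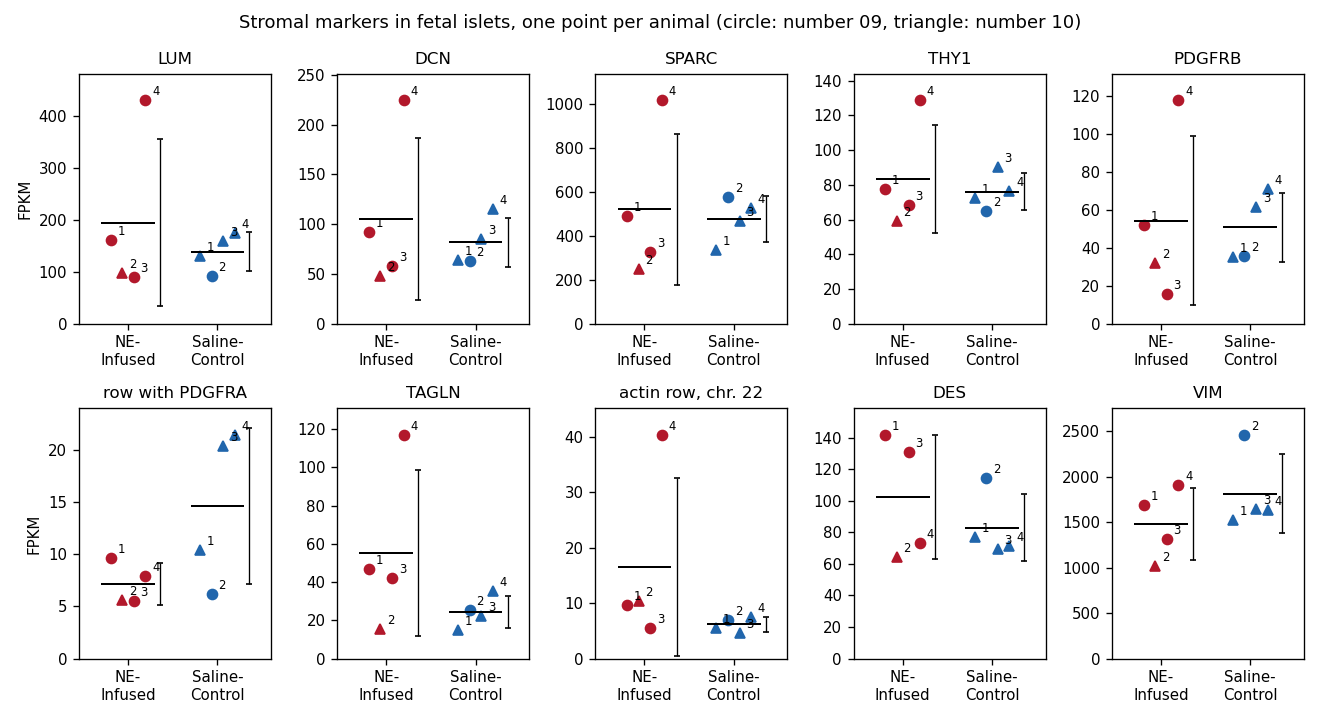
FPKM (vertical axis, from 0) of each stromal marker in every animal, NE-Infused left and Saline-Control right; the digit is the animal's replicate number, circles are animals numbered 09 and triangles those numbered 10, lines are group means and bars 1 SD (n = 4). NE-Infused 4 lies above the other 7 animals in LUM, DCN, SPARC, THY1, PDGFRB, TAGLN and the actin row of chromosome 22, and inside their range in DES, VIM and the row with PDGFRA.

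All 3 matrix markers were highest in NE-Infused 4. LUM encodes lumican, a small leucine-rich proteoglycan that binds collagen fibrils (chromosome 3, 127384837 to 127388852 on Oar_v3.1). It stood at 161, 97.3, 90.1 and 429.7 FPKM in NE-Infused animals 1 to 4, against 130.0, 91.0, 159 and 175 FPKM in Saline-Control animals 1 to 4. NE-Infused 4 was the only NE-Infused animal above the control range, NE-Infused 3 was just below it, and the groups overlapped. The means were 194.6 ± 160.0 FPKM in NE-Infused and 138.9 ± 37.1 FPKM in Saline-Control islets, which differed by 0.22 on the log2 scale (SE 0.46, limma adjusted p = 0.920).

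DCN encodes decorin, a proteoglycan of the same family, and lies next to LUM (chromosome 3, 127427409 to 127458485). It stood at 92.1, 48.0, 57.6 and 224 FPKM in NE-Infused animals 1 to 4, against 64.2, 63.1, 84.9 and 115 FPKM in Saline-Control animals 1 to 4. NE-Infused 4 was again highest, and NE-Infused 2 and 3 were the lowest of the 8. The log2 difference was 0.13 (SE 0.44, limma adjusted p = 0.950). LUM over DCN was 1.56 to 2.03 in NE-Infused and 1.44 to 2.02 in Saline-Control islets. In NE-Infused 4 it was 1.92, inside the range of the other 7 animals. Such a ratio is taken within a library and is not touched by scaling between libraries.

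SPARC encodes osteonectin, a collagen-binding matricellular protein that stromal cells secrete (chromosome 5, 60405206 to 60427607). It was the second most abundant marker, at 490.1, 250.2, 325 and 1018 FPKM in NE-Infused animals 1 to 4, against 336, 579.9, 470.5 and 526 FPKM in Saline-Control animals 1 to 4. NE-Infused 4 lay above and NE-Infused 2 and 3 below all 4 controls. The means nearly coincided, at 520.8 ± 346.3 FPKM in NE-Infused and 478.0 ± 104.7 FPKM in Saline-Control islets, and the log2 difference was -0.062 (SE 0.40, limma adjusted p = 0.974).

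THY1 and PDGFRB, a surface protein and a receptor, were also highest in NE-Infused 4, at 1.78 and 3.28 times the median of the other 7 animals. THY1 encodes the membrane glycoprotein CD90, a marker of fibroblasts and other mesenchymal cells that neurons also carry (chromosome 15, 29450455 to 29452173). It stood at 77.4, 59.2, 68.5 and 129 FPKM in NE-Infused animals 1 to 4, against 72.3, 64.9, 90.4 and 76.4 FPKM in Saline-Control animals 1 to 4. Apart from NE-Infused 4 all animals lay between 59.2 and 90.4 FPKM, and NE-Infused 2 was lowest. The log2 difference was 0.079 (SE 0.23, limma adjusted p = 0.943).

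PDGFRB encodes the beta receptor for PDGF, which marks pericytes and stellate cells (chromosome 5, 58981903 to 59017374). It stood at 51.9, 32.0, 15.7 and 117 FPKM in NE-Infused animals 1 to 4, against 34.9, 35.8, 61.3 and 70.8 FPKM in Saline-Control animals 1 to 4. The NE-Infused values held both the highest and the lowest of the 8 animals. The log2 difference was -0.19 (SE 0.53, limma adjusted p = 0.939).

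The row that merges PDGFRA, the alpha receptor of fibroblasts and mesenchymal progenitors, with the unnamed gene ENSOARG00000021645 (chromosome 6, 69735803 to 69772762) behaved otherwise. It stood at 9.64, 5.60, 5.51 and 7.95 FPKM in NE-Infused animals 1 to 4, against 10.5, 6.17, 20.4 and 21.5 FPKM in Saline-Control animals 1 to 4. NE-Infused 4 was not high here, and 3 of the 4 controls lay above every NE-Infused animal. The means were 7.18 ± 1.99 FPKM in NE-Infused and 14.6 ± 7.50 FPKM in Saline-Control islets, a log2 difference of -0.82 that did not pass (SE 0.36, limma adjusted p = 0.666). Because the row merges 2 genes, its value cannot be given to PDGFRA alone. PDGFRB over this row was 14.8 in NE-Infused 4 and between 2.85 and 5.80 in the other 7 animals.

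**Figure D2:**
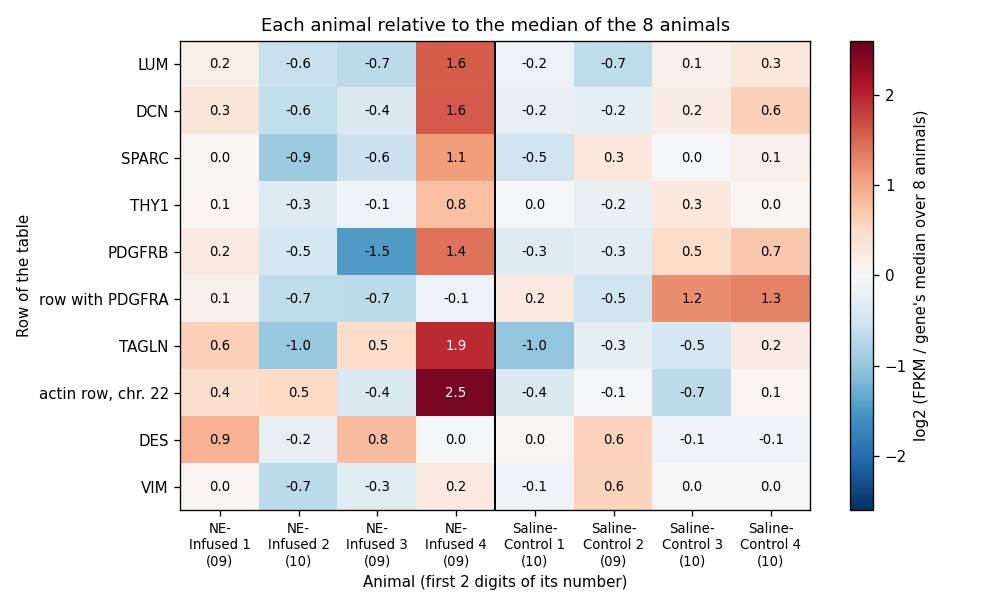
Each cell gives log2 of an animal's FPKM over the row's median in the 8 animals, with NE-Infused animals left of the line, Saline-Control animals right of it, and the first 2 digits of the animal number in brackets. The column of NE-Infused 4 is above the median in LUM, DCN, SPARC, THY1, PDGFRB, TAGLN, the actin row and VIM, while DES is highest in NE-Infused 1 and 3 and Saline-Control 2, all numbered 09.

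The contractile and filament genes did not move as 1 group. TAGLN encodes transgelin, also called SM22-alpha, an actin-binding protein of smooth muscle and activated stellate cells. It stood at 46.9, 15.4, 42.2 and 117 FPKM in NE-Infused animals 1 to 4, against 15.0, 25.6, 22.1 and 35.3 FPKM in Saline-Control animals 1 to 4. NE-Infused 1, 3 and 4 lay above all controls, and NE-Infused 2 lay among them. The means were 55.3 ± 43.3 FPKM in NE-Infused and 24.5 ± 8.41 FPKM in Saline-Control islets, and the log2 difference of 0.87 was the largest of the 8 markers and did not pass (SE 0.52, limma adjusted p = 0.730). The 3 high animals are the NE-Infused ones numbered 09, and the control numbered 09 lay among the other controls. The difference was 0.35 with the number in the model (limma adjusted p = 0.847) and 0.40 without NE-Infused 4. The file places TAGLN and PCSK7, a proprotein convertase, at the same coordinates (chromosome 15, 27382416 to 27408559), so the split of fragments between them is uncertain. PCSK7 itself stood between 18.0 and 30.9 FPKM in NE-Infused and between 20.1 and 27.7 FPKM in Saline-Control animals.

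ACTA2, the alpha actin of smooth muscle and the usual marker of activated stellate cells, has no row of its own. RefSeq places it between STAMBPL1 and FAS on the newer assembly ARS-UI_Ramb_v3.0. In the deposited table the only rows between these 2 genes are FAS-AS1 and a row named ACTB (chromosome 22, 10372581 to 10386337). That row was singled out after its values were seen and keeps the name the file gives it. It stood at 9.71, 10.4, 5.59 and 40.3 FPKM in NE-Infused animals 1 to 4, against 5.58, 7.00, 4.56 and 7.53 FPKM in Saline-Control animals 1 to 4. NE-Infused 4 was 5.75 times the median of the other 7 animals, and NE-Infused 3 lay within the control range. The log2 difference was 0.93 (SE 0.48, limma adjusted p = 0.695), and 0.39 without NE-Infused 4. Actin genes are alike in sequence, so fragments may have been shared between this row and others.

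DES encodes desmin, the intermediate filament of muscle and of stellate cells (chromosome 2, 220325615 to 220332415). It stood at 142, 64.7, 131 and 73.4 FPKM in NE-Infused animals 1 to 4, against 77.4, 114, 69.5 and 71.1 FPKM in Saline-Control animals 1 to 4. The 3 high animals were NE-Infused 1 and 3 and Saline-Control 2, and NE-Infused 4 lay with the low ones. The log2 difference was 0.25 (SE 0.28, limma adjusted p = 0.835), and -0.10 with the number in the model. It was 0.070 without NE-Infused 1 and 0.11 without NE-Infused 3, against 0.44 without NE-Infused 2 and 0.41 without Saline-Control 2. DES over TAGLN was 0.628 in NE-Infused 4 and between 2.02 and 5.15 in the other 7 animals.

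VIM encodes vimentin, the intermediate filament of mesenchymal cells (chromosome 13, 30747528 to 30755046). It was by far the most abundant marker and ranked 66 of the 25000 rows by its mean in Saline-Control islets. It stood at 1688, 1019.6, 1314 and 1913 FPKM in NE-Infused animals 1 to 4, against 1526, 2457, 1643 and 1632 FPKM in Saline-Control animals 1 to 4. The groups overlapped, and Saline-Control 2 was far above the other controls. The means were 1484 ± 395.9 FPKM in NE-Infused and 1815 ± 431.7 FPKM in Saline-Control islets, which differed by -0.30 on the log2 scale (SE 0.25, limma adjusted p = 0.780). The difference was -0.14 without NE-Infused 2 and -0.15 without Saline-Control 2.

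The order of the mean levels in Saline-Control islets was VIM, SPARC, LUM, DES, DCN, THY1, PDGFRB, TAGLN. DES at 83.1 ± 21.2, DCN at 81.9 ± 24.4 and THY1 at 76.0 ± 10.7 FPKM did not differ beyond their spread. In NE-Infused islets the same 3 genes averaged 102.7 ± 39.3, 105.5 ± 81.5 and 83.4 ± 31.1 FPKM, and TAGLN at 55.3 ± 43.3 and PDGFRB at 54.3 ± 44.7 FPKM were level.

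Because 1 animal set so many of the high values, the comparison was also made without it. Without NE-Infused 4, 2 of 8 markers were higher and 6 lower in NE-Infused islets, where 50.6% of all tested rows were lower. The median log2 difference of the markers turned to -0.29, against -0.0027 over all rows. LUM stood at -0.26, DCN at -0.32 and THY1 at -0.15, each now negative, SPARC at -0.45, PDGFRB at -0.68 and VIM at -0.44. TAGLN at 0.40 and DES at 0.38 were positive. By limma 0 of 8 were called, against 0% of 13217 rows, 0 of 8 had an unadjusted p under 0.05 against 5.51% of rows, and the adjusted p-values lay between 0.946 and 0.974. NE-Infused 4 was also the youngest fetus, at 137 days. Age and treatment are partly confounded, as 139 days is the only age found in both groups. With gestational age in the model the median of the markers was -0.86 and 0 of 8 were called. That fit separates age from treatment poorly.

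**Figure D3:**
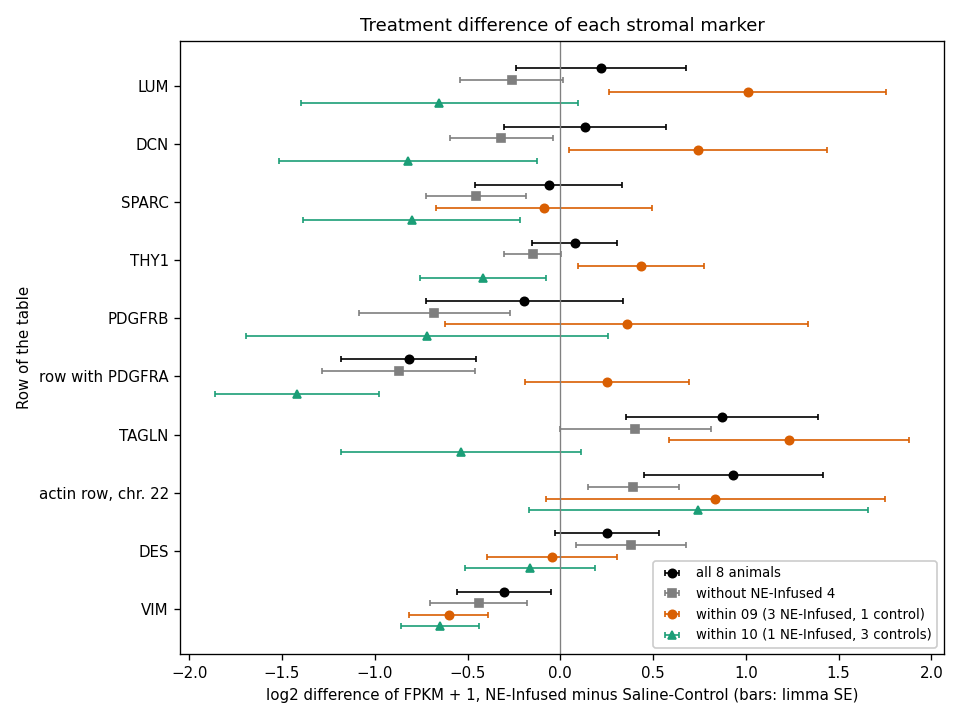
Log2 difference of FPKM + 1, NE-Infused minus Saline-Control (horizontal axis), of each stromal marker over all 8 animals, without NE-Infused 4, within the animals numbered 09 and within those numbered 10; bars are limma SEs. VIM and SPARC lie left of 0 in all 4 comparisons, and the 8 markers lie left of 0 within 10, where the contrast is NE-Infused 2 alone against 3 controls.

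The comparison was then made within each number group, in a model with a mean for each treatment and number. Within 10, which sets NE-Infused 2 against Saline-Control 1, 3 and 4, all 8 markers were lower, where 49.4% of all tested rows were lower. Their median was -0.65 against 0.0024 over all rows. By limma 0 of 8 were called (0.0906% of rows), and 1 of 8 had an unadjusted p under 0.05 (5.77% of rows). In 7 of the 8 markers NE-Infused 2 lay below all 3 controls numbered 10, as it did in 29.9% of all rows. Within 09, which sets NE-Infused 1, 3 and 4 against Saline-Control 2, 5 of 8 markers were higher, where 45.8% of all rows were higher. Their median was 0.40 against -0.036 over all rows. By limma 0 of 8 were called (0.0528% of rows), and 1 of 8 had an unadjusted p under 0.05 (11.7% of rows). Each of these contrasts has a single animal on one side, which is assumed to vary like the others.

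The signs of 5 markers parted between the number groups. LUM differed by -0.65 within 10 and by 1.01 within 09 (SE 0.75 in each), DCN by -0.82 within 10 and 0.74 within 09, TAGLN by -0.54 and 1.23, THY1 by -0.42 and 0.43, and PDGFRB by -0.72 and 0.36, in the same order. Tested as an interaction of treatment and number group, none of these differences passed. By limma 0 of 8 markers were called (0.121% of rows), with adjusted p-values from 0.848 to 0.978, and 0 of 8 had an unadjusted p under 0.05 (5.61% of rows). The row with PDGFRA stood at 5.60 FPKM in NE-Infused 2, against 17.4 ± 6.06 FPKM in the 3 controls numbered 10 (SD, n = 3). Within 09 it stood at 7.70 ± 2.08 FPKM in the 3 NE-Infused animals (SD, n = 3), against 6.17 FPKM in Saline-Control 2.

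VIM was lower by a like amount in both. Within 10 it stood at 1019.6 FPKM in NE-Infused 2, against 1600.5 ± 64.4 FPKM in the 3 controls (SD, n = 3). Within 09 it averaged 1638 ± 302.6 FPKM in the 3 NE-Infused animals (SD, n = 3), against 2457 FPKM in Saline-Control 2. It was the 1 marker in which every NE-Infused animal lay below every control of its own number group, a pattern met by 12% of all tested rows. The log2 differences were -0.65 and -0.60 (SE 0.21 in each), and -0.63 with the number in the model (SE 0.14). None of these passed: the limma adjusted p-values were 0.817 within 10, 0.381 within 09 and 0.307 with the number in the model. In the last of these models 0 of 8 markers were called (0.00755% of rows), and VIM was the 1 marker with an unadjusted p under 0.05, as 11.7% of all rows had. SPARC differed by -0.80 within 10 and by -0.088 within 09, and DES by -0.16 and -0.044, in the same order.

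Animals numbered 10 were also set against those numbered 09, allowing for treatment. By limma 1 of 8 markers was called, against 16.5% of all rows, 2 of 8 had an unadjusted p under 0.05, against 34.6% of rows, and 7 of 8 were lower in animals numbered 10, where 57.4% of rows were lower. The called marker was VIM, which averaged 1455 ± 295.2 FPKM in animals numbered 10 and 1843 ± 478.4 FPKM in those numbered 09, or -0.64 on the log2 scale, 10 minus 09 (SE 0.14, limma adjusted p = 0.0242). The call was lost with equal summed FPKM (difference -0.19, adjusted p = 0.292), with no treatment term (-0.33, adjusted p = 0.314), and without NE-Infused 2 (adjusted p = 0.118) or Saline-Control 1, 2 or 3 (adjusted p = 0.0542, 0.215 and 0.0546). DES came next. It stood at 64.7, 77.4, 69.5 and 71.1 FPKM in the animals numbered 10, against 142, 131, 73.4 and 114 FPKM in those numbered 09, with NE-Infused 4 as the low animal of the 09 group. The difference was -0.71 (SE 0.23, limma adjusted p = 0.0695), and it passed without NE-Infused 4 (-0.85, adjusted p = 0.0140) and with no treatment term (-0.66, adjusted p = 0.0448). TAGLN differed by -1.05 (SE 0.52, limma adjusted p = 0.199) and SPARC by -0.77 (SE 0.40, adjusted p = 0.214).

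Other genes of the same cells and pathways were read from lists of symbols that do not include the markers. In none of them did limma call a member between NE-Infused and Saline-Control islets, as it called 0% of all tested rows. Of all tested rows 52.6% were higher in NE-Infused islets, and NE-Infused 4 was the highest animal in 21.7%. Of 13 collagen chains 5 were higher and 8 lower, and NE-Infused 4 was the highest animal in 11 of them. Their summed level ran from 584.5 to 2316 FPKM in NE-Infused and from 813.4 to 1135 FPKM in Saline-Control animals. Of 28 tested non-collagen matrix proteins and matrix enzymes 14 were higher and 14 lower, and NE-Infused 4 was highest in 22. In 17 of the 28 it reached at least 2 times the median of the other 7 animals, as it did in 6.1% of all tested rows and in 5 of the 8 markers. TIMP1, an inhibitor of matrix metalloproteinases, stood at 925.1 FPKM in NE-Infused 4 against a median of 213.6 FPKM in the other 7 animals, and MGP, the matrix Gla protein that restrains calcification, at 683.3 against 105.0 FPKM.

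Of 22 tested fibroblast and mesenchyme genes 11 were higher and 11 lower, and NE-Infused 4 was highest in 11, where it was highest in 21.7% of all tested rows. The most abundant, the hyaluronan receptor CD44, averaged 112.3 ± 36.3 FPKM in NE-Infused and 110.9 ± 29.0 FPKM in Saline-Control islets. PDPN, the surface protein podoplanin, averaged 44.0 ± 7.29 and 49.2 ± 17.7 FPKM, in the same order of groups. Of 12 tested pericyte and stellate genes 7 were higher and 5 lower, and in 8 of the 12 NE-Infused 4 reached at least 2 times the median of the other 7. The most abundant were ANPEP, aminopeptidase N, at 94.2 ± 13.6 FPKM in NE-Infused and 68.1 ± 58.2 FPKM in Saline-Control islets, and MCAM, the adhesion molecule CD146, at 42.5 ± 15.5 and 50.0 ± 12.5 FPKM. KCNJ8 and ABCC9, subunits of a potassium channel of vascular mural cells, were named after their values were seen. They stood at 10.4 and 12.9 FPKM in NE-Infused 4, against medians of 0.738 and 1.98 FPKM and highest values of 1.94 and 3.53 FPKM in the other 7 animals.

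Of 15 tested genes of the contractile apparatus 9 were higher and 6 lower, and NE-Infused 4 was highest in 9, where it was highest in 21.7% of all tested rows. The 2 most abundant differed in this: TAGLN2, a transgelin of many non-muscle cells, stood at 886.2 FPKM in NE-Infused 4 against a median of 895.6 FPKM in the others, and TPM4, a tropomyosin of non-muscle cells, at 348.7 FPKM in NE-Infused 4 against a median of 254.7 and a highest value of 301.5 FPKM in the others. Of 15 PDGF ligands and signalling partners 7 were higher and 8 lower, with a median log2 difference of -0.0043. Their sum ran from 731.3 to 739.5 FPKM in NE-Infused and from 757.2 to 785.2 FPKM in Saline-Control animals. This sum is weighted towards the most abundant genes of the list. Among single rows 4.23% had groups without overlap, and in the other lists summed here the 2 groups overlapped. How often sums of lists in general part the groups was not tested. The most abundant were STAT3 (206.0 ± 16.2 FPKM in NE-Infused and 229.3 ± 9.18 FPKM in Saline-Control islets) and the adaptor GRB2 (178.9 ± 17.0 and 185.8 ± 19.0 FPKM). The ligand gene PDGFA, named after its values were seen, reached 41.0 FPKM in NE-Infused 4 and at most 20.6 FPKM in the other 7 animals. Of 9 symbols for serum response factor and its partners 5 had a row and were tested. Of these 1 was higher and 4 were lower. Serum response factor itself had no row under its symbol. The most abundant of the 5 were FHL2 (65.6 ± 19.4 FPKM in NE-Infused and 72.6 ± 27.9 FPKM in Saline-Control islets) and ELK1 (28.1 ± 2.99 and 34.6 ± 3.15 FPKM).

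Markers of other cell types were summed in each animal and stand beside these values. Of 12 endothelial markers 2 were higher and 10 lower in NE-Infused islets, and their sum ran from 205.6 to 473.6 FPKM in NE-Infused and from 291.4 to 411.5 FPKM in Saline-Control animals. As for the sum of the stromal markers, its highest animal was NE-Infused 4 and its lowest NE-Infused 2. Gene by gene the likeness was weaker. NE-Infused 4 was highest in 3 of the 12 endothelial markers, against 21.7% of all tested rows. In 0 of the 12 did it reach at least 2 times the median of the other 7 animals, against 6.1% of rows. All 6 tested acinar markers were higher in NE-Infused islets, with a sum of the 9 listed of 129.6 to 903.6 FPKM in NE-Infused and 110.6 to 148.6 FPKM in Saline-Control animals. Their median log2 difference was 1.37. It was 0.61 with the animal number in the model, where 5 were higher and 1 lower. Within 10, where NE-Infused 2 stands alone, it was -0.56, and within 09 it was 1.81. The acinar sum was highest in NE-Infused 3, at 903.6 FPKM, where PDGFRB was lowest, and stood at 358.7 FPKM in NE-Infused 4. PTF1A, the acinar transcription factor, is listed at 0 in NE-Infused 2 and 4 and Saline-Control 3 and averaged 0.958 FPKM over the 8 animals. Leukocyte markers summed to 181.4 to 311.7 FPKM in NE-Infused and 178.0 to 245.5 FPKM in Saline-Control animals (4 of 8 tested higher). Schwann and glia markers summed to 101.7 to 133.1 and 106.5 to 136.2 FPKM (4 of 6 higher), duct markers to 1341 to 1992 and 1446 to 1681 FPKM (3 of 6 higher) and endocrine markers to 8642 to 14413 and 6125 to 10392 FPKM (13 of 14 higher), in the same order of groups. None of these genes was called by limma between the groups, where 0% of all tested rows were called. Each sum is weighted towards its most abundant genes. In the duct list that was KRT8, at 1058 ± 230.0 FPKM in NE-Infused and 1175 ± 78.9 FPKM in Saline-Control islets. KRT7, the next of that list, averaged 252.5 ± 107.8 and 124.7 ± 42.8 FPKM. In the glia list it was NCAM1, at 73.4 ± 17.6 and 74.4 ± 8.82 FPKM, in the same order of groups. The part of other cell types in the levels of the stromal markers was not tested.

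**Figure D4:**
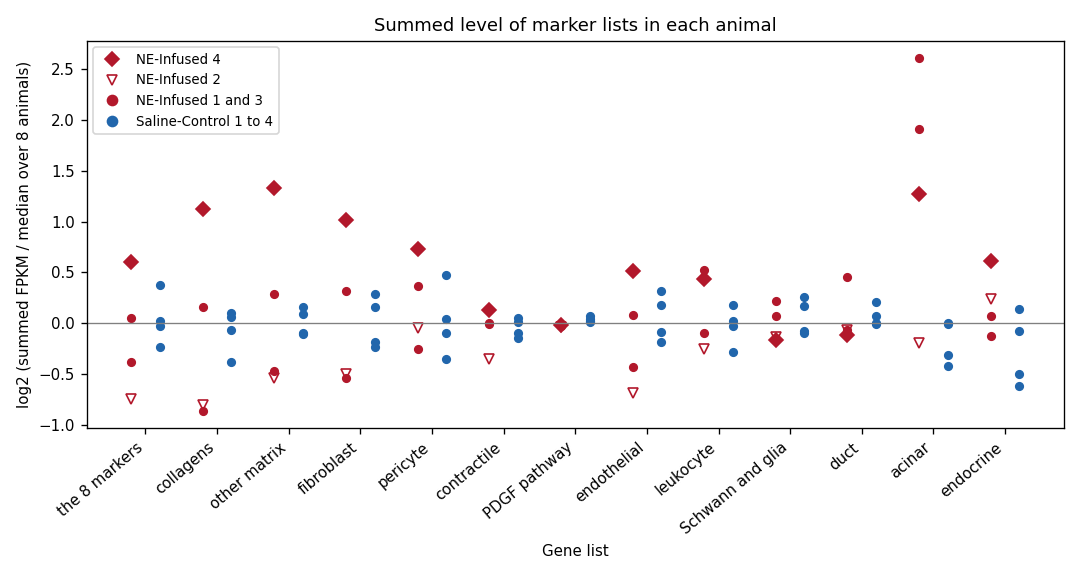
Log2 of the summed FPKM of each gene list over its median in the 8 animals (vertical axis), with NE-Infused animals in red left of Saline-Control animals in blue. Each sum is weighted towards the most abundant genes of its list. NE-Infused 4 (diamond) is the highest animal in the 8 markers, collagens, other matrix, fibroblast, pericyte, contractile, endothelial and endocrine lists and lies at the level of the other NE-Infused animals in the PDGF pathway list.

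To find the rows whose course over the 8 animals was most like that of the markers, the z-scores of the 8 markers were averaged in each animal. This profile was 0.378, -1.10, -0.480 and 1.46 in NE-Infused animals 1 to 4, against -0.488, 0.010, 0.024 and 0.192 in Saline-Control animals 1 to 4. The 8 markers did not all share this course. Pearson's r between markers had a median of 0.74 over all 28 pairs, 0.39 over pairs with VIM and -0.21 over pairs with DES. Without NE-Infused 4 the median over all pairs was 0.43. The 10 closest rows by Pearson's r over the 8 animals were PCOLCE, PPARD, GPX8, a row merging C1QTNF5 with an unnamed gene, SNAI2, SLC29A1, LOXL1, AGFG1, the unnamed ENSOARG00000003361 and CYP27A1, with r from 0.976 to 0.988 and Spearman's rho from 0.810 to 0.976. Without the 2 animals farthest from the middle of the profile r was 0.872 to 0.975, and without NE-Infused 4 it was 0.913 to 0.980. As the closest of all rows they carry no p, and the 8 points share their libraries and scaling with the markers. PCOLCE, which encodes an enhancer of procollagen processing (chromosome 24, 35843017 to 35847949), stood at 159 FPKM in NE-Infused 4 against a median of 50.1 FPKM in the other 7. SNAI2, a transcription factor of mesenchymal cells (chromosome 9, 32778177 to 32780624), stood at 54.6 against 16.7 FPKM, and LOXL1, an enzyme that cross-links elastin (chromosome 18, 33553252 to 33575448), at 18.6 against 6.07 FPKM. None of the 10 was called between NE-Infused and Saline-Control islets by limma, with adjusted p-values from 0.868 to 0.991, as 0% of all tested rows were. These rows were picked for following a profile that overlaps between the groups, so this outcome carries no information of its own.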

How the data were processed

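Messenger RNA of islets from 8 fetuses was made into TruSeq libraries and read as paired ends of 100 bp, per the labels' protocols. The submitters' processing notes list TopHat2 2.0.1, Cufflinks 2.1.1, Cuffdiff and the build Oar_v3.1. Annotation, filters and strand setting: not given in the sources used here. From these reads the authors deposited 1 FPKM value per row and animal, per the file headers, without counts. Columns were matched to animals by number, and 0 sample columns were left out. Starts were raised by 1 to count from 1.

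Values were analysed as log2(FPKM + 1), which understates the change of low genes, in rows with a mean of at least 1 FPKM, with limma 3.58.1 in R 4.3.3 (eBayes with an intensity trend, two-sided, Benjamini-Hochberg). The model held treatment alone. Other models added the first 2 digits of the animal number, or had a mean for each treatment and number. The limma step was tested on simulated data. Where a listed symbol had several rows, the most abundant was taken. All markers were named whatever their outcome, with the 2 most abundant genes of most lists and the 10 rows most like the markers. The markers and lists were chosen with earlier results of these data known. Alternatives changed the pseudocount, filter, scaling, variance model and covariates, or left out 1 animal.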

Additional observations from a re-analysis of the deposited data

Results flagged for a closer look

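In the 20 groups of 4 values examined (8 markers and 2 further rows, in each treatment group), 2 held a value whose gap to its nearest neighbour exceeded Dixon's 95% critical value for 4 samples, a test by which chance marks about 1 group in 20. VIM stood at 2457 FPKM in Saline-Control 2, a gap of 0.875 of the Saline-Control range. The row named ACTB on chromosome 22 stood at 40.3 FPKM in NE-Infused 4, a gap of 0.862 of the NE-Infused range.

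THY1 was lower in the NE-Infused animal numbered 10 than in all 3 Saline-Control animals numbered 10, and higher in all 3 NE-Infused animals numbered 09 than in the Saline-Control animal numbered 09. The difference between these contrasts was -0.85 on the log2 scale, 10 minus 09 (SE 0.48), and did not pass as an interaction (limma adjusted p = 0.848). Each contrast has a single animal on one side. The share of all tested rows with this pattern was not counted, so it cannot be called particular to THY1.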

How the results depend on the processing

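In the comparison of NE-Infused with Saline-Control islets 0 of 8 markers were called under any alternative, and VIM and the row with PDGFRA were negative under each alternative, VIM at -0.14 to -0.44 and the row at -0.59 to -1.14 with 1 animal left out. Rows called over the table numbered 0, 1 with equal summed FPKM, 1 with the number in the model, and 0 to 2 with 1 animal left out. Equal summed FPKM moved the median of all rows by -0.14 (to -0.12) and the markers' median to -0.048, and turned THY1 to -0.074 and DCN to -0.021. With the number in the model the markers' median was -0.072, DCN -0.040 and DES -0.10. With gestational age in the model the markers' median was -0.86, TAGLN -0.42, THY1 -0.40, DCN -0.92, LUM -0.79 and the actin row -0.39. Age and treatment are partly confounded, so that fit separates them poorly. With 1 animal left out the ranges were -0.45 to 0.22 for SPARC, -0.68 to 0.26 for PDGFRB, -0.15 to 0.22 for THY1, -0.32 to 0.41 for DCN, -0.26 to 0.48 for LUM, 0.40 to 1.35 for TAGLN, 0.070 to 0.44 for DES and 0.39 to 1.28 for the actin row, and -0.29 to 0.32 for the markers' median, lowest without NE-Infused 4. With the number in the model and without NE-Infused 4, a fit chosen after seeing the data, THY1 was -0.14, DCN -0.34 and LUM -0.16. Replicate numbers belong to different animals (correlation of deviations -0.38 to 0.093), and with the replicate block 0 markers and 0 rows were called.

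Between number groups (10 minus 09), equal summed FPKM raised the median of all rows to 0.31, left 0 markers called, and gave 4363 rows called (4127 higher, 236 lower) where the main scaling gave 2187 (803 higher, 1384 lower) and the median-of-ratios factor 2092 (1051 higher, 1041 lower). THY1 turned to 0.31, DCN to 0.10, LUM to 0.37 and the actin row to 0.12 with equal summed FPKM, and LUM to 0.00081 with the median-of-ratios factor. With 1 animal left out, 0 to 2 markers and 18 to 2272 rows were called, 18 without Saline-Control 2 (the 1 control numbered 09), 710 without NE-Infused 2, and 915, 859 and 1119 without Saline-Control 1, 3 and 4, and the markers' median ran from -0.84 to 0.062. The ranges were -0.51 to 0.56 for PDGFRB, -0.56 to 0.29 for THY1, -1.13 to 0.44 for DCN, -0.91 to 0.75 for LUM, -0.37 to 1.30 for the row with PDGFRA and -0.54 to 0.079 for the actin row. The cause of these changes was not tested.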
